A study of Mus musculus with 4 samples.

Results

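The genes described here encode the fibroblast growth factors (FGF), the platelet-derived growth factors (PDGF), the vascular endothelial growth factors (VEGF) and their receptors. They were chosen by symbol alone: *Fgf*, *Fgfr*, *Pdgf* or *Vegf* followed by a number or letter, with *Fgfrl1*, *Pdgfra*, *Pdgfrb*, *Flt1*, *Kdr*, *Flt4* and *Pgf*. The rule found 41 of the 23924 genes in the deposited table. The rule itself uses no measured value.

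The cells were tail tip fibroblasts (TTFs) cultured from male mice of the C57BL/6J-TgBAC8-2087 line. TG cells came from Tg2087/+ animals, which carry 200 kb of the X-inactivation center, including *Xist*, in an autosome, and WT cells came from +/+ animals of the same litter. Both genotypes had been immortalized with the large T gene of Simian virus 40 and were tetraploid, so the WT cells are no model of a normal diploid fibroblast. Poly(A) RNA of 2 WT and 2 TG libraries was sequenced in paired-end mode, and expression was given as FPKM, fragments relative to the length of the gene and to the depth of the library. The sources used here do not state whether 2 libraries of 1 genotype were grown from different animals or cultures, so the p-values measure only the spread between these libraries, which may be technical.

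FGFs, PDGFs and VEGFs are secreted proteins that bind receptor tyrosine kinases on the cell surface, which pair up, phosphorylate each other and pass the signal to the RAS and ERK pathway, to PI3 kinase and to phospholipase C. Connective tissue cells are known both as targets and as sources: PDGF drives their growth and migration, several FGFs made by them act on the epithelium above, and VEGFs made by them act on blood and lymph vessels. A small group of FGFs, *Fgf11* to *Fgf14*, stays inside the cell and binds sodium channels, and is counted here only because of its symbols.

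In TG cells *Fgf7*, *Fgf10* and *Vegfd* were higher and the PDGF receptor gene *Pdgfrb* was lower than in WT cells at an adjusted p under 0.05 (limma, Benjamini-Hochberg). Mean *Fgf7* expression was 18.5 ± 3.02 FPKM in WT and 69.1 ± 7.17 FPKM in TG (SD, n = 2 each). *Vegfd* expression was 2.82 ± 0.464 FPKM in WT and 12.2 ± 0.251 FPKM in TG. *Pdgfrb* expression was 57.0 ± 0.340 FPKM in WT and 29.3 ± 3.46 FPKM in TG, so that the mean dropped by 48.7%. None of the other 18 tested members passed that threshold.

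The promoters of the 3 genes that were higher in TG are shown because they are the stretches at which these genes' transcription starts. Each sequence runs from 250 bases before the start to 50 bases after it, on the plus strand of GRCm38.p6, and was taken from RefSeq. They lie at chr2:126034408-126034707 for *Fgf7*, chr13:118714449-118714748 for *Fgf10* and chrX:164373272-164373571 for *Vegfd*. Capitals mark the matches to the motifs searched.
Fgf7: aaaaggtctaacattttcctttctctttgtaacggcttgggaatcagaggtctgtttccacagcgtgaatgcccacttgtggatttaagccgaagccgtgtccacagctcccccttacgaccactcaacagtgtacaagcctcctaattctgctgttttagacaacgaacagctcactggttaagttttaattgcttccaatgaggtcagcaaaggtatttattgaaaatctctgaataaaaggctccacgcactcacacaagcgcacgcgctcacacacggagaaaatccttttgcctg
Fgf10: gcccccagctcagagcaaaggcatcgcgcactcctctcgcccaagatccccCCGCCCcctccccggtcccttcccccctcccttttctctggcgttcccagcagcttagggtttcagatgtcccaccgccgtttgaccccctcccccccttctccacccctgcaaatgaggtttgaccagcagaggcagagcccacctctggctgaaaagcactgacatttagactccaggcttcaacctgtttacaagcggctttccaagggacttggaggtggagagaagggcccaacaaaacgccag
Vegfd: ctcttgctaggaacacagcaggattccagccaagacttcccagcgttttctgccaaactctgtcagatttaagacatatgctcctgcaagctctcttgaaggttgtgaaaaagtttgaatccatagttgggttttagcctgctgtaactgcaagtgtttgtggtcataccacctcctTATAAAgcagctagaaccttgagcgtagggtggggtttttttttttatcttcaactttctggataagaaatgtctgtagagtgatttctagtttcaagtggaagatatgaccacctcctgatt

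Of the 41 members, 32 had a promoter in the RefSeq table of 32851. Each was searched on both strands for a TATA box (TATAAA), a GC box (GGGCGG), an AP-1 site (TGANTCA), a TEAD site (GGAATG), a hypoxia response core (ACGTG) and a CArG box. The *Fgf7* promoter held none of these letters. The *Fgf10* promoter held 1 GC box on the minus strand, whose first base lies at -199 from the start. The *Vegfd* promoter held 1 TATA box at -73. The 3 shared no searched motif. A match is a description of letters and not a binding site.

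A GC box stood in 21 of the 32 member promoters (65.6%) and in 35.7% of all promoters of that length. The TATA box was found in 5 members (15.6%) against 13.6% of all, the TEAD site in 5 (15.6%) against 14.7%, and the hypoxia core in 6 (18.8%) against 19.6%. No member promoter held the AP-1 site, which 7.81% of all promoters did, and 1 (3.12%), that of *Pdgfc*, held the CArG box, against 1.63% of all. The member promoters had a median GC content of 61.33% and a median of 17 CpG dinucleotides, against 52.67% and 7 over all promoters. Each member entered with 1 promoter, while the set of all promoters was limited neither to 1 per gene nor to a type of gene. The 2 sets may therefore differ in more than membership. *Vegfd*, with 42% GC and 2 CpGs, and *Fgf7*, with 45.67% and 11 CpGs, were below the medians of the members, and so was *Fgf10*, with 60.67% and 10 CpGs.

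The library totals behind the FPKM values, worked out from their ratios, lay between 9465712 and 14639946 reads, and that of WT 2 was 1.55 times that of WT 1. Between 99.66% and 99.70% of these totals lay on genes, so they need not be all the reads sequenced. Whether a read counted here is a single read or a pair is not stated in the sources used here. The transcript *Xist* was read 0 and 28 times in the WT libraries and 489 and 449 times in the TG libraries. The fibroblast label was checked against 11 markers: *Vim* ranged from 2147 to 2547 FPKM, *Thy1* from 451.9 to 681.0 FPKM and *Col1a1* from 406.6 to 867.3 FPKM. Of the same list *Lum* was at 0 in every library, *Dcn* stood at 0.878 FPKM or less and *Dpt* ranged from 0.429 to 1.73 FPKM. The smooth muscle genes *Acta2* and *Tagln* were also high, from 1851 to 4797 and from 2038 to 3920 FPKM, while *Kcnj8* and *Abcc9* of that list were at 0 in every library. The macrophage markers *Ptprc* and *Adgre1*, the keratinocyte markers *Krt5* and *Krt14* and the muscle regulators *Myod1* and *Myog* were at 0 in every library. Other genes of the macrophage and keratinocyte lists were not: *Cd68* ranged from 5.12 to 12.1 FPKM, *Cd14* from 3.25 to 4.96 FPKM and *Krt10* from 1.396 to 2.45 FPKM. In bulk RNA, fewer cells of a type and less RNA per cell cannot be told apart.

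Of the 41 members, 6 (*Fgf4*, *Fgf8*, *Fgf15*, *Fgf16*, *Fgf20* and *Fgfr4*) were at 0 in all 4 libraries, 13 were above 0 but under a mean of 0.5 FPKM, and 22 were tested. The filter took the mean over all libraries, so *Fgf10* and *Pdgfra* passed through their TG values and *Fgf22*, whose TG mean was 0.368 FPKM, through its WT values, and counts over the tested members are not counts over all of them. The nearest members under the limit were *Fgfr3*, *Fgf9* and *Fgf5*, with means of 0.232, 0.226 and 0.194 FPKM, and the nearest above it were *Fgf18*, *Pdgfra* and *Fgf22*, with 0.551, 0.590 and 0.612 FPKM. The members lie on 18 chromosomes, 7 of them on Chr 5 and 3 on Chr X, and Chr 1 holds 0.

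By the stricter rule, an adjusted p under 0.01 with a change of at least 1 on the log2 scale, 2 of the 22 tested members were higher in TG, *Fgf7* and *Vegfd* (9.09%), where 0.607% of all 11524 tested genes were. Both fell outside the strict rule without WT 1 or WT 2, without the variance trend or with all genes above 0 tested. By the same rule 0 members were lower in TG, against 0.469% of all tested genes. At an adjusted p under 0.05 alone, 3 members were higher (13.6%) against 2.59% of all tested genes, and 1 was lower (4.55%) against 1.54%. Both TG libraries lay above both WT libraries for 7 of the 22 members, and below them for 10, with 5 overlapping. Over all tested genes these shares were 30.2% above and 20.3% below. With voom on recovered reads 3 members were higher by the strict rule (1.08% of all tested genes) and 1 was lower (1.32%), and at 0.05 alone 4 were higher (3.63%) and 2 were lower (4.41%). *Fgf10* is among the 3 higher at 0.05, the 7 above and the higher members with voom, and *Pdgfra* is among the 7 and the 4. Both entered the tests only through their TG values, and *Fgf22*, among the 10 below, only through its WT values. These counts therefore partly follow from the filter. The median log2 fold change over all tested genes was 0.07, and quantile normalization moved it to -0.01 and the calls over all genes from 70 higher and 54 lower to 58 higher and 68 lower.

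**Figure D1:**
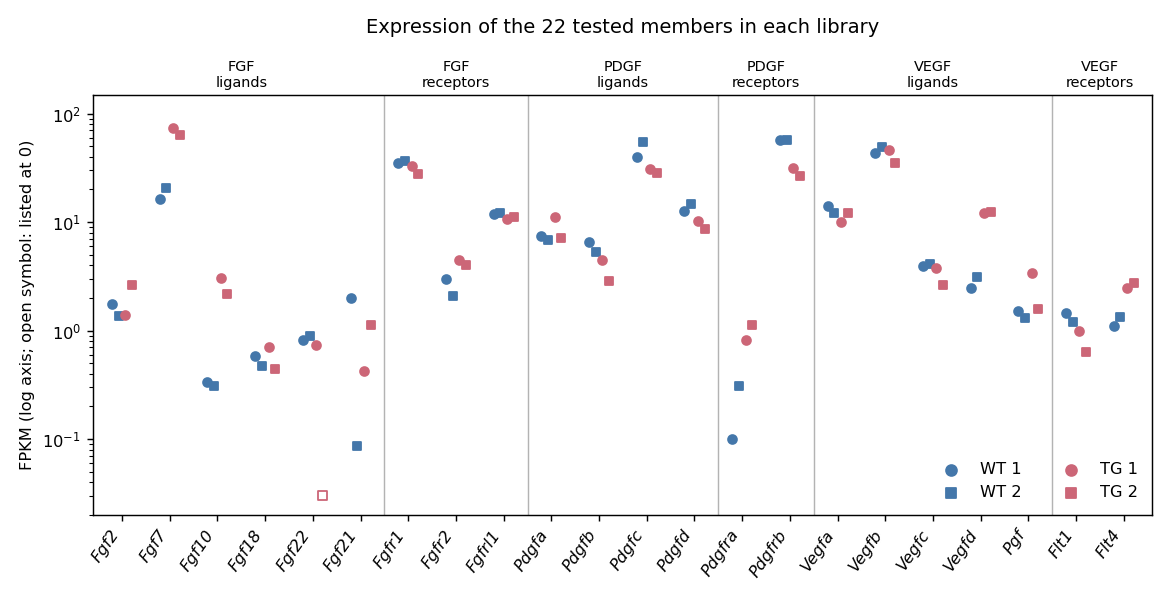
Expression of the 22 tested members in each library, as FPKM on a log axis, ordered by family (circles, replicate 1; squares, replicate 2; blue, WT; red, TG; an open symbol marks a value listed at 0). *Fgf7*, *Fgf10* and *Vegfd* stand higher in both TG libraries, and *Pdgfrb* stands at 56.8 and 57.3 FPKM in WT and at 31.7 and 26.8 in TG.

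**Figure D2:**
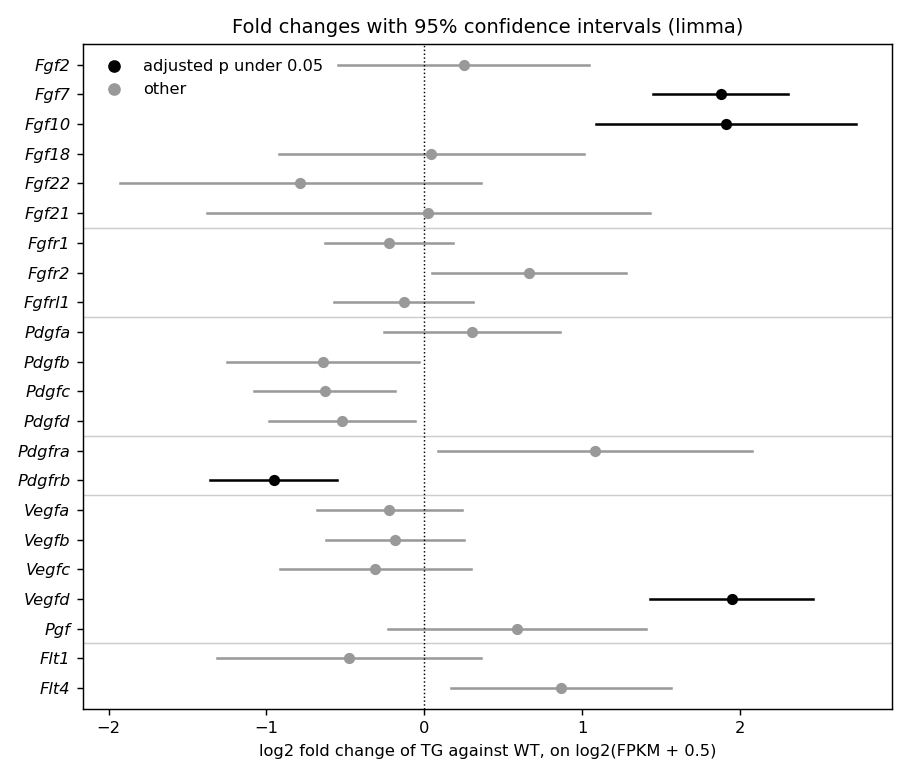
Log2 fold change of TG against WT for the 22 tested members, on the log2(FPKM + 0.5) scale, with 95% confidence intervals from limma (black, adjusted p under 0.05; grey, other). *Fgf7*, *Fgf10* and *Vegfd* lie between 1.87 and 1.95, and *Pdgfrb* lies at -0.96.

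Among the FGF ligands, *Fgf7* encodes keratinocyte growth factor, which mesenchymal cells secrete and which acts on epithelia through the IIIb form of *Fgfr2*. It lies at chr2:126034658-126091185. Its expression was 16.4 FPKM in WT 1 and 20.7 in WT 2, and 74.2 in TG 1 and 64.0 in TG 2, from 392, 764, 2231 and 1787 reads. Both TG libraries stood far above both WT libraries. The mean FPKM in TG was 3.72 times that in WT, and the log2 fold change was 1.87 ± 0.19 (SE; 95% interval 1.45 to 2.30; adjusted p = 0.00071, limma). Over 13 alternative settings the adjusted p of limma ranged from 6.8e-08 to 0.034.

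*Fgf10* encodes a second epithelial factor that binds the same receptor form, known for its part in limb and lung outgrowth, and lies at chr13:118714699-118792573. Its level was 0.334 FPKM in WT 1 and 0.309 in WT 2, and 3.07 in TG 1 and 2.17 in TG 2, from 14, 20, 162 and 106 reads. The WT libraries were close to each other, and the lower TG library was well above both. The ratio of the mean FPKM was 8.14, while the log2 fold change on the log2(FPKM + 0.5) scale, which understates changes of low genes, was 1.91 ± 0.37 (adjusted p = 0.019, limma). On the recovered reads limma's voom method gave 2.93, with an adjusted p of 0.0025. The call at 0.05 was lost without WT 1, WT 2 or TG 1, where the adjusted p of limma was 0.089, 0.16 and 0.068, and with all genes above 0 tested (0.083). An antisense gene, *Gm16263*, shares 123 exonic bases with *Fgf10*, and whether the counting used the strand is not stated in the sources used here.

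*Fgf2*, the basic FGF that leaves cells without a signal peptide, had 1.74 and 1.38 FPKM in WT against 1.38 and 2.65 in TG, from between 9 and 16 reads per library. The groups overlapped, with a log2 fold change of 0.25 ± 0.36 (adjusted p = 0.76, limma), which turned to -0.12 without TG 2. Its antisense partner *Nudt6* shares 640 exonic bases with it. *Fgf18*, a factor of cartilage and bone growth, ranged from 0.441 to 0.701 FPKM, with a log2 fold change of 0.04 ± 0.44 that changed sign under 3 alternatives. The circulating factor *Fgf21* ranged from 0.0856 to 1.99 FPKM, with both extremes in WT, from 1 and 15 reads. *Fgf22* had 0.812 and 0.900 FPKM in WT, 0.736 in TG 1 and no read in TG 2 (log2 fold change -0.79 ± 0.52, adjusted p = 0.45, limma).

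Several FGF ligands were seen at a few reads only and were not tested. *Fgf9*, a factor of gonad and lung development, was read 8 and 14 times in WT and 0 times in either TG library. Its mean FPKM in WT was 3.45 times the level that 3 reads per library would give in TG. *Fgf1*, the acidic FGF, showed the opposite layout, with 0 reads in both WT libraries and 9 and 4 reads in TG. Its mean FPKM in TG was 2.14 times the level that 3 reads per library would give in WT. *Fgf5*, the factor that ends hair growth, had 2 and 3 reads in WT and 5 and 11 reads in TG. The ratios of *Fgf9* and *Fgf1* take the reads of the genotype with reads as exact, so they are no lower bounds. They also leave out any spread between libraries beyond counting error.

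The other low FGF ligands were each above 0 in 1 library: *Fgf3* in TG 2 (0.519 FPKM, 12 reads), *Fgf6* in WT 1 (4 reads), *Fgf23* in WT 1 (7 reads) and *Fgf17* in TG 1 (2 reads). Of the intracellular group, *Fgf11* had 10 and 8 reads in WT and 0 and 1 in TG, and *Fgf13* had 0 in both WT libraries and 3 and 4 reads in TG. *Fgf12* had 5 reads, all in TG 1, and *Fgf14* had 1 read in WT 2 and 2 in TG 1. For genes seen in few libraries the number of reads rests on the annotated gene length.

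**Figure D3:**
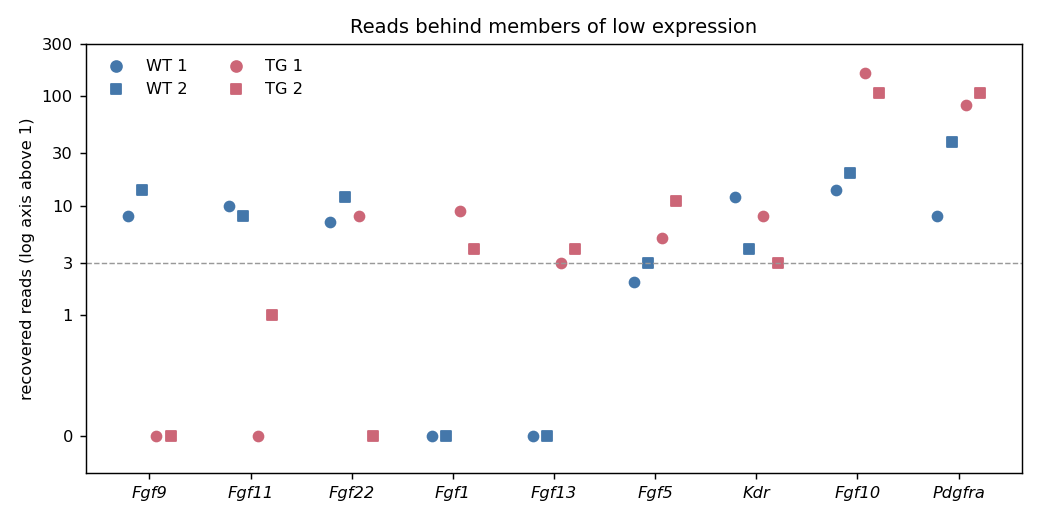
Reads behind 9 members of low expression in each library, on an axis that is linear below 1 and logarithmic above it (circles, replicate 1; squares, replicate 2; blue, WT; red, TG; dashed line, 3 reads). *Fgf9* has reads in WT libraries and 0 in TG libraries, *Fgf1* and *Fgf13* the reverse, and *Fgf10* and *Pdgfra* reach 83 reads or more wherever the sample is TG.

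The summed FPKM of all FGF ligands, the intracellular group included, was 23.1 and 24.6 in WT and 81.2 and 71.6 in TG. *Fgf7* alone made 71.1% and 84.1% of that sum in WT and 91.3% and 89.4% in TG. The groups did not overlap in this share, whose difference was 12.8 percentage points (exact permutation test, two-sided, p = 0.333, the smallest that 2 libraries against 2 can give). The shares of the other FGF ligands move with that of *Fgf7*, since they add up to the same total.

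On the receptor side, *Fgfr1* is the main FGF receptor of mesenchymal cells. It had 34.7 and 36.6 FPKM in WT against 33.2 and 27.97 in TG, and its log2 fold change was -0.22 ± 0.18 (95% interval -0.63 to 0.18; adjusted p = 0.56, limma). *Fgfr2*, whose IIIb form is the receptor of *Fgf7* and *Fgf10*, had 2.99 and 2.09 FPKM in WT against 4.49 and 4.04 in TG. Both TG values were above both WT values, with a log2 fold change of 0.66 ± 0.28 that did not pass the test (95% interval 0.05 to 1.28; adjusted p = 0.22, limma; 0.12 with voom). The table does not separate the IIIb and IIIc forms, and *Fgfr2* shares 314 exonic bases with *Ctbp2* on the same strand.

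*Fgfrl1*, a receptor without a kinase domain, differed little between libraries, from 10.7 to 12.2 FPKM, with a log2 fold change of -0.13 ± 0.20 (95% interval -0.57 to 0.31). *Fgfr3*, the receptor that restrains bone growth, stood between 0.123 and 0.434 FPKM and was not tested, and *Fgfr4* was at 0. *Fgfr1* made 69.7% and 71.3% of the summed FPKM of the FGF receptors in WT and 68.2% and 64.5% in TG, a difference of -4.15 percentage points (exact permutation test, p = 0.333). The share of *Fgfr2* was 6.00% and 4.07% in WT and 9.23% and 9.30% in TG.

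Of the 4 genes for PDGF chains, *Pdgfc* was the highest, with 39.6 and 54.3 FPKM in WT against 31.2 and 28.5 in TG. PDGF-C and PDGF-D are secreted in a latent form and cut by proteases, whereas PDGF-A and PDGF-B leave the cell active. *Pdgfc* was lower in both TG libraries, with a log2 fold change of -0.63 ± 0.20 (95% interval -1.08 to -0.18) that did not pass in the main test (adjusted p = 0.12, limma) and passed with voom (-0.71, adjusted p = 0.015). Its adjusted p ranged from 0.015 to 0.48 over the alternatives.

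*Pdgfd* had 12.6 and 14.7 FPKM in WT against 10.2 and 8.55 in TG, at a log2 fold change of -0.52 ± 0.21 (95% interval -0.99 to -0.06; adjusted p = 0.20, limma). *Pdgfb*, the chain that binds both receptors, had 6.50 and 5.33 FPKM in WT against 4.49 and 2.86 in TG (-0.64 ± 0.27, 95% interval -1.25 to -0.04; adjusted p = 0.23, limma). In these 3 genes both TG libraries lay below both WT libraries, as 20.3% of all tested genes did, and none of the 3 passed the main test.

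*Pdgfa*, a ligand of the alpha receptor, went the other way only in TG 1, with 7.42 and 6.84 FPKM in WT against 11.2 and 7.08 in TG. Its log2 fold change was 0.30 ± 0.25 (adjusted p = 0.57, limma) and -0.01 without TG 1. The antisense gene *6330403L08Rik* shares 813 exonic bases with it. Summed over the 4 chains, FPKM was 66.1 and 81.1 in WT and 57.0 and 46.9 in TG, and the share of *Pdgfa* was 11.2% and 8.43% in WT and 19.6% and 15.1% in TG.

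*Pdgfrb* encodes the beta receptor, which binds PDGF-B and PDGF-D and is known as the receptor of pericytes, smooth muscle cells and activated fibroblasts. It lies on Chr 18 and was, in WT, the highest of the 7 tested receptors of the 3 families. Its expression was 56.8 FPKM in WT 1 and 57.3 in WT 2, and 31.7 in TG 1 and 26.8 in TG 2, from 2830, 4414, 1991 and 1562 reads. The WT libraries were nearly equal, and both TG libraries were far below them. The log2 fold change was -0.96 ± 0.18 (95% interval -1.35 to -0.56; adjusted p = 0.016, limma), and -1.03 with voom (adjusted p = 0.00013). The call was lost without WT 1, WT 2 or TG 2, at adjusted p-values of 0.083, 0.14 and 0.085, and also without the variance trend or with all genes above 0 tested, both 0.083 (limma).

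Markers of pericytes and smooth muscle were lower in the same libraries. Of 11 such markers 7 were tested, 0 were higher and 3 were lower in TG at an adjusted p under 0.05 (limma). By this rule 2.59% of all tested genes were higher and 1.54% lower. The median log2 fold change of the list was -0.96 against 0.07 over all tested genes. *Cnn1*, a calponin of contractile filaments, had 700.3 and 661.1 FPKM in WT against 168.2 and 232.0 in TG (adjusted p = 0.0011). *Acta2*, smooth muscle actin, and *Mcam*, a surface protein, were lower by log2 fold changes of -1.19 and -0.96 (adjusted p = 0.014 and 0.026, limma). The summed FPKM of the list was 8717 and 8966 in WT and 4088 and 4774 in TG, and the pericyte genes *Kcnj8* and *Abcc9* were at 0 in every library. Of 9 tested fibroblast markers 2 were lower, the collagen genes *Col5a1* (-0.97, adjusted p = 0.013) and *Col1a1* (-0.82, adjusted p = 0.049, limma). With voom 6 of the 7 pericyte and smooth muscle markers and 3 of the 9 fibroblast markers were lower, against 4.41% of all tested genes. Of the alternatives only voom was counted for the marker lists. The part of these markers in the *Pdgfrb* result was not tested.

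*Pdgfra*, the alpha receptor, is a marker of many dermal fibroblasts, and was low in all 4 libraries. Its level was 0.0999 FPKM in WT 1 and 0.307 in WT 2, and 0.823 in TG 1 and 1.13 in TG 2, from 8, 38, 83 and 106 reads. Both TG libraries were above both WT libraries, and the WT libraries differed from each other by more than the TG libraries did on a ratio scale. The log2 fold change was 1.08 ± 0.45 on the log2(FPKM + 0.5) scale (adjusted p = 0.22, limma) and 2.19 with voom on the reads, where it passed (adjusted p = 0.031). The antisense gene *Gm42802* shares 456 exonic bases with it.

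Of the summed FPKM of both PDGF receptors, *Pdgfra* made 0.176% and 0.533% in WT and 2.53% and 4.05% in TG. The difference in this share was 2.94 percentage points (exact permutation test, two-sided, p = 0.333), and the sum itself was 56.9 and 57.6 FPKM in WT against 32.5 and 27.95 in TG. At least 95.9% of the receptor transcripts by this measure were thus *Pdgfrb* in each library.

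*Vegfd* encodes a ligand of *Flt4* (VEGFR3) that acts on lymphatic vessels, and lies at chrX:164373522-164402650. Its expression was 2.49 FPKM in WT 1 and 3.14 in WT 2, and 12.0 in TG 1 and 12.4 in TG 2, from 44, 86, 268 and 256 reads. The TG libraries were nearly equal and both far above WT. The mean FPKM in TG was 4.34 times that in WT, and the log2 fold change was 1.95 ± 0.23 (95% interval 1.43 to 2.46; adjusted p = 0.0015, limma). Over the 13 alternatives the adjusted p of limma ranged from 0.0004 to 0.053, and its highest value came with all genes above 0 tested.

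The other VEGF ligands did not pass the test. *Vegfb*, a ligand of *Flt1*, was the highest, with 43.2 and 49.3 FPKM in WT against 46.6 and 35.1 in TG (-0.19 ± 0.20, 95% interval -0.63 to 0.25). *Vegfa*, the main factor of blood vessel growth, had 13.9 and 12.2 FPKM in WT against 10.1 and 12.2 in TG (-0.22 ± 0.21, 95% interval -0.68 to 0.24; adjusted p = 0.61, limma). *Vegfc*, the closest relative of *Vegfd* and also a lymphatic factor, had 3.90 and 4.14 FPKM in WT against 3.78 and 2.61 in TG (-0.31 ± 0.27, 95% interval -0.92 to 0.30). *Pgf*, placental growth factor, had 1.52 and 1.29 FPKM in WT against 3.39 and 1.59 in TG (0.59 ± 0.37, adjusted p = 0.42, limma), with TG 1 far above the rest.

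The summed FPKM of the VEGF ligands overlapped between the genotypes, while the share of *Vegfd* did not. The sum was 65.0 and 70.1 in WT and 75.9 and 63.9 in TG. *Vegfd* made 3.83% and 4.48% of it in WT and 15.8% and 19.4% in TG. *Vegfa* made 21.4% and 17.4% in WT and 13.3% and 19.1% in TG, overlapping groups with a difference of -3.22 percentage points (exact permutation test, two-sided, p = 0.667).

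All 3 VEGF receptor genes, which are known from endothelium, were low. *Flt4* had 1.10 and 1.34 FPKM in WT against 2.49 and 2.76 in TG, from 59, 112, 169 and 174 reads. Both TG libraries were above both WT libraries, with a log2 fold change of 0.87 ± 0.31 that did not pass (95% interval 0.17 to 1.56; adjusted p = 0.16, limma; 0.077 with voom). *Flt1*, a receptor that also exists as a soluble decoy, had 1.45 and 1.20 FPKM in WT against 1.001 and 0.635 in TG, with both TG values below both WT values and a log2 fold change of -0.48 ± 0.38 (adjusted p = 0.54, limma). *Kdr*, the main signalling receptor of *Vegfa*, had 12, 4, 8 and 3 reads and was not tested.

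Of the summed FPKM of these receptors, *Flt4* made 40.4% and 52.1% in WT and 69.6% and 80.5% in TG, and *Flt1* made 53.4% and 46.5% in WT and 27.9% and 18.5% in TG. The difference for *Flt4* was 28.8 percentage points (exact permutation test, two-sided, p = 0.333). The endothelial markers *Tie1*, *Cldn5*, *Emcn* and *Sox18* were at 0 in every library, and *Pecam1* and *Cdh5* did not exceed 0.398 FPKM. Of the same list *Egfl7*, the only tested member of 12, ranged from 8.89 to 13.9 FPKM, *Esam* stood at 0.677 FPKM in WT 1 alone, and *Erg* stood at 0.446 and 0.288 FPKM in WT against 0.076 and 0 in TG. Of the lymphatic markers, *Lyve1* was at 0 and *Prox1* was at 0.061 FPKM or less, while podoplanin (*Pdpn*), which fibroblasts also express, had 14.8 and 14.6 FPKM in WT against 33.3 and 33.9 in TG (log2 fold change 1.17, adjusted p = 0.0067, limma).

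**Figure D4:**
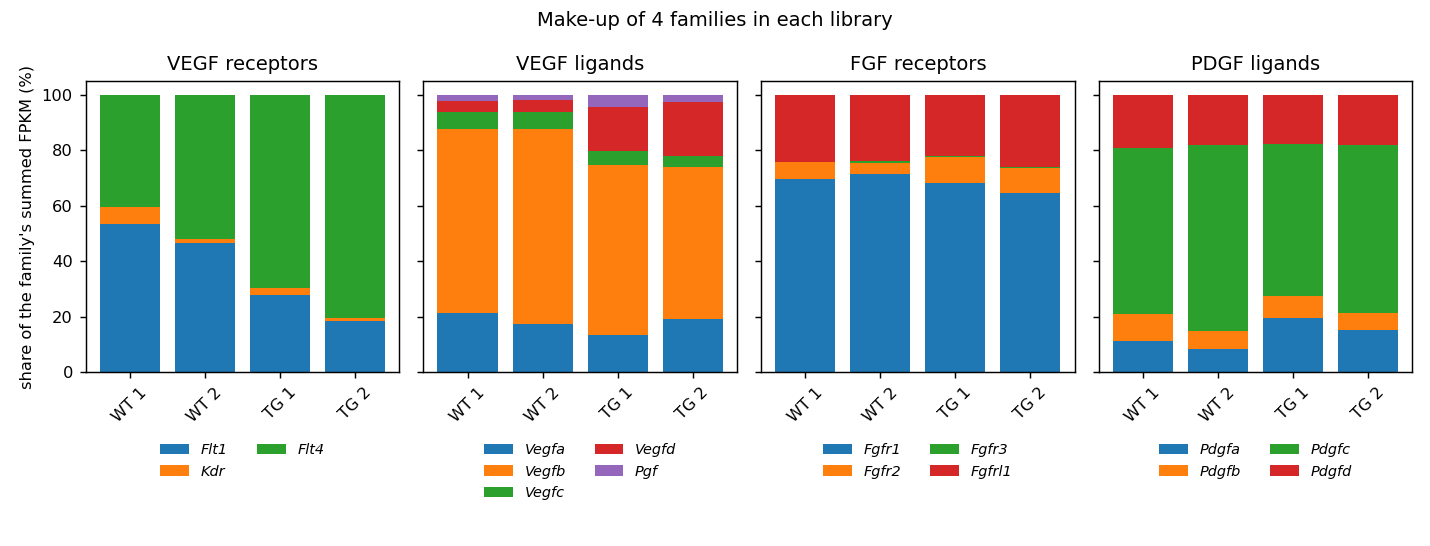
Share of each gene in the summed FPKM of its family in each library, in percent, for the VEGF receptors, VEGF ligands, FGF receptors and PDGF ligands. *Flt4* takes 40.4% and 52.1% of the VEGF receptors in WT and 69.6% and 80.5% in TG, and *Vegfd* takes 3.83% and 4.48% of the VEGF ligands in WT and 15.8% and 19.4% in TG.

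Proteins that assist these ligands and receptors were read as lists. Of 7 genes for PDGF and VEGF cofactors and processing enzymes, all 7 were tested and 2 were higher in TG at an adjusted p under 0.05 (limma), where 2.59% of all tested genes were. *Plat*, tissue plasminogen activator, which cleaves latent PDGF-C, had 19.5 and 20.4 FPKM in WT against 32.2 and 44.3 in TG (0.90 ± 0.20, adjusted p = 0.035, limma). *Nrp1*, a coreceptor of VEGF, had 16.7 and 17.8 FPKM in WT against 32.0 and 27.5 in TG (0.76 ± 0.19, adjusted p = 0.0499, limma). The related coreceptor *Nrp2* had 28.3 and 36.5 FPKM in WT against 21.3 and 21.8 in TG and did not pass (-0.57 ± 0.20, adjusted p = 0.14, limma). *Pdgfrl*, a PDGF receptor-like protein, did not pass either (-0.60 ± 0.29, adjusted p = 0.28, limma). It had 16.1 FPKM in WT 1 and 8.24 in WT 2 against 6.97 and 7.90 in TG. The median of the list was -0.24. The 2 calls became 0 with upper-quartile scaling, quantile normalization, all genes above 0 or no variance trend, and without WT 1, WT 2 or TG 2, and 1 with a pseudocount of 0.1 or without TG 1. With voom 2 were higher and 2 were lower, the latter *Nrp2* and *Lrp1* (adjusted p = 0.018 and 0.041). Of these *Lrp1*, an endocytic receptor, is named after its values were seen. By voom 3.63% of all tested genes were higher and 4.41% were lower at an adjusted p under 0.05.

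Of 7 FGF cofactors and binding proteins 4 were tested and 0 passed, with a median log2 fold change of -0.07. They were *Flrt1*, *Flrt2*, *Flrt3* and *Fgfbp3*, with log2 fold changes of 0.50 ± 0.38, -0.10 ± 0.24, -0.39 ± 0.30 and -0.03 ± 0.43. The klotho genes *Kl* and *Klb*, coreceptors of the circulating FGFs, did not exceed 0.0510 FPKM in any library. All 30 genes for adaptors and enzymes of the receptors' signalling were tested, and 1 was higher, *Map2k2*, the ERK kinase MEK2, with 53.5 and 36.8 FPKM in WT against 104.7 and 74.0 in TG (0.98 ± 0.23, adjusted p = 0.043, limma). This share of the list was close to the 2.59% of all tested genes, and the call was lost in 8 of the 13 alternatives, among them either rescaling, all genes above 0, no variance trend, and the fits without WT 1, WT 2 or TG 1. Their median log2 fold change was -0.0045.

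Of 22 genes known as feedback regulators or targets of ERK 20 were tested, 3 were higher and 0 were lower in TG at an adjusted p under 0.05 (limma), and the median log2 fold change was 0.40 against 0.07 over all tested genes. Over all tested genes 2.59% were higher and 1.54% lower by this rule. The 3 calls became 0 with all genes above 0, without WT 1 or without WT 2, 1 without the variance trend, and 2 without TG 1 or without TG 2. *Fosl1*, an AP-1 subunit, had 24.9 and 28.1 FPKM in WT against 60.9 and 71.3 in TG (1.30 ± 0.18, adjusted p = 0.0044, limma). *Dusp5*, a nuclear ERK phosphatase, had 21.3 and 17.8 FPKM in WT against 51.1 and 39.3 in TG (1.18 ± 0.20, adjusted p = 0.011, limma). *Phlda1*, a small regulator induced by growth factors, had 28.1 and 35.4 FPKM in WT against 60.0 and 69.5 in TG (1.02 ± 0.19, adjusted p = 0.016, limma).

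Not all of these genes pointed one way. *Il17rd*, the FGF antagonist Sef, had 3.36 and 4.45 FPKM in WT against 1.52 and 1.38 in TG, and its log2 fold change of -1.17 ± 0.30 missed the threshold (adjusted p = 0.055, limma) and passed with voom (-1.50, adjusted p = 0.00075). With quantile normalization 1 of the 20 was lower, and with voom 4 were higher, with the cyclin gene *Ccnd1* as the fourth (0.65, adjusted p = 0.014), and 1 was lower. Over all tested genes voom called 3.63% higher and 4.41% lower, so that 1 lower of 20 was near that share. With quantile normalization the share over all genes at 0.05 was not worked out. The immediate early genes *Fos* and *Egr1*, named here after their values were seen, had log2 fold changes of -0.61 ± 0.24 and -0.15 ± 0.25, and 0 of the sprouty and spred genes passed.

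**Figure D5:**
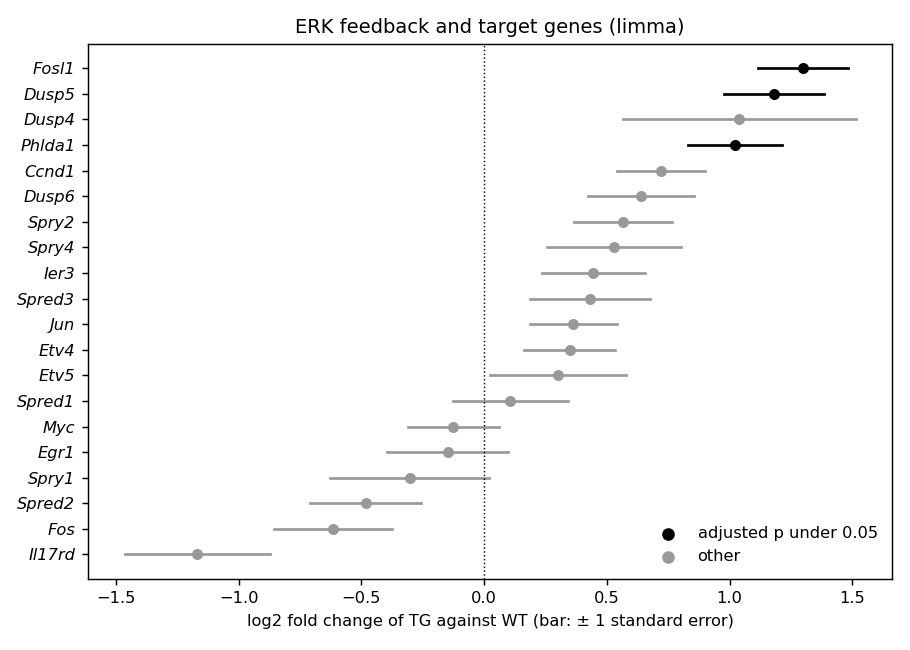
Log2 fold change of TG against WT, on the log2(FPKM + 0.5) scale, for the 20 tested ERK feedback and target genes, with bars of ± 1 standard error (black, adjusted p under 0.05 in limma; grey, other). *Fosl1*, *Dusp5* and *Phlda1* lie between 1.02 and 1.30, and *Il17rd* lies at -1.17.

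The other receptor tyrosine kinases served as the nearest comparison for the receptors. Of 44 such genes 21 were tested, 15 were at 0 in every library, and 0 passed at an adjusted p under 0.05 (limma), with a median log2 fold change of -0.04. By this rule 2.59% of all tested genes were higher and 1.54% lower, so that 0 of 21 was near these shares. Among the 7 tested receptors of the FGF, PDGF and VEGF families 1 passed, *Pdgfrb*. With voom 1 of the 21 was higher, *Tyro3*, and 2 were lower, *Igf1r* and *Ephb2*, the latter named after its values were seen. Over all tested genes voom called 3.63% higher and 4.41% lower. The difference between the 7 family receptors and the 21 other kinases was not tested.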

How the data were processed

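The study measured poly(A) RNA of 2 WT and 2 TG TTF libraries, made strand-specific. Per the methods, the authors used Rsubread to align the reads to mm10 and to count them per gene. The authors deposited FPKM values made from these counts, and the FPKM values are used here. Whether counting used the strand is not given in the sources used here.

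TG was compared with WT by limma 3.58.1 in R 4.3.3 (lmFit, then eBayes with its trend option) on log2(FPKM + 0.5). The 11524 genes whose mean FPKM reached 0.5 entered the fit, and Benjamini-Hochberg adjustment ran over all of them. Shares were compared by two-sided exact permutation tests (scipy 1.17.1, Python 3.11.15).

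Between libraries, the FPKM of a gene formed ratios of whole numbers. These ratios gave the library totals and, for each of the 15530 genes above 0, its whole reads (100%, within 1e-07 of a read beyond the rounding of the values), and for 947 genes a common factor was chosen by exonic length. Between 99.66% and 99.70% of the totals lay on genes. Limma's voom on these reads was an alternative. The others were pseudocounts of 1 and 0.1, quantile normalization, upper-quartile scaling, no variance trend, all genes above 0 or only those whose mean FPKM reached 1, a block for the replicate number, leaving out each library in turn, and a fold threshold of 0.5 or an adjusted p under 0.05 for the strict rule.

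Any member could be named. Of each other list the genes with an adjusted p under 0.05 were named. The next largest changes could be named up to 4 genes, which was done for some lists only. Members, lists and tests were chosen with earlier results of these data known. Gene positions and promoters came from RefSeq (GRCm38.p6), exonic overlaps from GENCODE.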

Additional observations from a re-analysis of the deposited data

How the results depend on the processing

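With 2 libraries per genotype, the calls moved with the setting, those of *Fgf7* and *Vegfd* by the strict rule included. By the strict rule the 2 members higher in TG became 0 with the replicate block, with all genes above 0 tested or without the variance trend, 0 to 2 with a library left out (0 without WT 1 or WT 2) and 3 with voom. The 0 lower became 1 with voom, *Pdgfrb*. At an adjusted p under 0.05, the 3 higher became 1 with all genes above 0 (*Fgf7*), 2 to 3 with a library left out and 4 with voom. The 1 lower became 0 with all genes above 0, without the trend or with the block, 0 to 1 with a library left out and 2 with voom. Over all genes the strict rule called 70 higher and 54 lower, 0 and 1 with all genes above 0, 3 and 6 without the trend, 12 and 8 with the block, 0 and 1 without WT 1, 7 and 2 without WT 2, and 124 and 152 with voom. A left-out library leaves 1 in its group, which is assumed to vary like the other group. At an adjusted p under 0.05 voom called 3.63% of all tested genes higher and 4.41% lower, against 2.59% and 1.54% in the main fit. For the other settings these shares were not worked out.

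Over the tested genes, the differences between replicates 1 and 2 were not shared by the genotypes (correlation of the differences -0.03). Whether the replicate numbers mark a pairing is not stated in the sources used here. With the replicate block *Fgf7* and *Vegfd* had adjusted p-values of 0.015 and 0.017, *Fgf10* 0.061 and *Pdgfrb* 0.064 (limma). Of the lists, the block gave 0 cofactor calls against 2, 0 adaptor calls against 1 and 2 ERK target calls against 3.

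Log2 fold changes of members that passed no test changed sign as follows. With quantile normalization *Fgf18* was -0.056 and *Fgf21* -0.037, and *Fgf21* was -0.049 with a pseudocount of 1 and -0.0071 with upper-quartile scaling. With a library left out, *Fgf2* ranged from -0.12 to 0.62, *Fgf18* from -0.13 to 0.22, *Fgf21* from -1.02 to 1.07, *Pdgfa* from -0.0079 to 0.61 and *Vegfb* from -0.39 to 0.013. The cause was not tested. The share differences kept their direction with a library left out, at 2.17 to 3.70 percentage points for *Pdgfra*, -6.02 to -2.29 for *Fgfr1* and -6.08 to -0.36 for *Vegfa*.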

Other observations

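Outside the FGF, PDGF and VEGF families, the receptor tyrosine kinase transcripts of these cells were led by *Axl*, a receptor of the growth arrest protein GAS6, with 166.6 and 168.6 FPKM in WT against 207.1 and 203.8 in TG. It did not pass the test (0.29 ± 0.17, adjusted p = 0.38, limma). Its relative *Tyro3* had 5.76 and 5.50 FPKM in WT against 10.7 and 9.36 in TG, at a log2 fold change of 0.78 ± 0.22 that missed the threshold (adjusted p = 0.077, limma) and passed with voom (adjusted p = 0.033). *Ephb6*, an ephrin receptor without kinase activity, rested on low values, with 0.322 and 0.927 FPKM in WT against 1.67 and 2.60 in TG (1.26 ± 0.41, adjusted p = 0.12, limma). *Axl* was named after its values were seen.

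Among markers of other tissues, the cartilage regulator *Sox9* had 1.90 and 2.44 FPKM in WT against 7.11 and 9.05 in TG (log2 fold change 1.68 ± 0.26, adjusted p = 0.0067, limma), while the cartilage collagen gene *Col2a1* did not exceed 0.302 FPKM. Of the same list *Runx2* went the other way, with 7.14 and 8.14 FPKM in WT against 4.83 and 5.28 in TG. Its log2 fold change was -0.55 ± 0.23 (adjusted p = 0.21, limma), and -0.67 with voom (adjusted p = 0.045). *Acan*, the remaining tested gene of the list, did not pass (0.59 ± 0.48). Skeletal actin (*Acta1*) had 11.1 and 9.75 FPKM in WT against 5.07 and 5.21 in TG (-0.95 ± 0.22, adjusted p = 0.037, limma), with the other 5 skeletal muscle markers at 0 in every library.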
